A study of Homo sapiens with 6 samples.

Results

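The APC region on 5q22 was described here in Hi-C maps of 4 human cancer cell lines. The window ran from 107 to 122 Mb of chromosome 5 (hg19) and held 375 of the 75918 bins of 40 kb. Its members were 9 genes that overlap 52 of those bins. From proximal to distal these were CAMK4, EPB41L4A, APC, SRP19, REEP5, DCP2, MCC, KCNN2 and SEMA6A, among 48 protein-coding genes of the window. The window and the genes were selected on the same maps, for bins not listed in SNU-C1 and for contacts of HCC1954 with chromosome 8, so the values of these readouts are descriptions and no p-value is given.

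In situ Hi-C joins DNA ends that lie close together in fixed nuclei, and the number of read pairs that connect 2 bins measures how often they touch. SW480 and SNU-C1 are colon cancer lines, HCC1954 is a breast cancer line and OE33 is an esophageal adenocarcinoma line, and the labels list no treatment for any of them. The lines SNU-C1, HCC1954 and OE33 came with a single map, so they have no replicate error. For SW480 there were replicates 1 and 2 and an unnumbered map that pools both and serves as the SW480 map here. The study calls its Hi-C replicates biological, and the labels do not say whether they were separate cultures. The maps held 89418425 to 133374697 read pairs between different bins of a chromosome (65986524 and 67369013 in the SW480 replicates). Pairs within a bin, which only the SW480 maps hold, are left out. The 95% Poisson intervals given below cover counting error only. The SW480 maps held almost no pairs between chromosomes (0.216% of all read pairs, those within a bin included), so SW480 entered no comparison between chromosomes.

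APC is the scaffold of the complex that marks beta-catenin for destruction, and its loss switches on Wnt signalling in most colorectal tumours. MCC, its neighbour, was named for mutations in colorectal cancer. In a Hi-C map a lost stretch shows as bins with few or no read pairs, and a deletion or a translocation shows as a block of strong contacts between positions that lie far apart on the reference, strongest at the corner where the 2 ends meet. Read pairs per bin follow the amount of DNA as well as mappability and base composition, so each gene is given relative to the same bins in the other lines.

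In SNU-C1, APC and its neighbours from CAMK4 to MCC had 0.170 to 0.239 times the coverage of the other lines, KCNN2 had no bin listed and SEMA6A was at 0.630. A bin is called listed where the deposited map holds a value for it. A bin that is not listed counts as 0 here, but it may have been left out for low coverage and is no measured count of 0. Coverage counts the read pairs of a bin with other bins of the same chromosome, so pairs between chromosomes are left out. It is given first over the autosomal median of the map, and then over the median of the other 3 lines. APC (chr5:112043215-112181936, plus strand, 4 bins) was at 0.375 of the autosomal median in SNU-C1, with 1195 read pairs per bin. The same bins were at 1.57 in SW480 (1.58 and 1.56 in replicates 1 and 2), 2.46 in HCC1954 and 1.30 in OE33. SNU-C1 was lowest and HCC1954 highest. The 4 bins of SNU-C1 ranged from 0.362 to 0.385, and bins of 1 map are not replicates. Relative to the other lines, APC was at 0.239 in SNU-C1, 1.89 in HCC1954, 1.21 in SW480 and 0.827 in OE33. The 4779 read pairs of SNU-C1 have an interval of 4644 to 4916, and the SW480 replicates were at 1.21 ± 0.0065 (SD, n = 2). Counted over pairs at least 1 Mb apart the value of SNU-C1 was 0.334, and over pairs between chromosomes, against HCC1954 and OE33, it was 0.101. From 109.28 to 113.04 Mb HCC1954 had 153498 read pairs between chromosomes, of 22858042 in its map. OE33 had 99047 of 51700273, so HCC1954 raises this reference and lowers the value.

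The 3 genes just distal to APC lay between 0.222 and 0.232 in SNU-C1 with every bin listed. SRP19 encodes a subunit of the signal recognition particle, and its 2 bins were at 0.232 of the other lines. REEP5, which shapes the endoplasmic reticulum, was at 0.222. SRP19 has no bin of its own, since it shares 1 with APC and 1 with REEP5, so its coverage and its contacts are not separate from theirs. DCP2, the enzyme that removes the cap of messenger RNAs, was at 0.224. In SW480 these genes were at 1.12, 1.10 and 1.19, in OE33 at 0.894, 0.907 and 0.844, and in HCC1954 at 1.69, 1.73 and 1.83.

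The longer genes on both sides were listed only in part. MCC (467 kb) had 8 of its 13 bins listed in SNU-C1 and was at 0.170 of the other lines over all bins and 0.181 over the listed ones. EPB41L4A, a FERM-domain protein of the membrane skeleton family, had 6 of 8 bins listed and was at 0.190. CAMK4, a calmodulin-dependent kinase, had 5 of 8 bins listed and was at 0.175. In every other line all bins of these genes were listed. MCC was at 1.08 in SW480, 1.64 in HCC1954 and 0.927 in OE33. EPB41L4A was at 1.22, 1.57 and 0.822 in the same order. CAMK4 was at 1.38, 2.06 and 0.725, the highest HCC1954 value of the 9 genes.

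KCNN2 and SEMA6A stood apart from the rest. KCNN2, a calcium-activated potassium channel, had none of its 12 bins listed in SNU-C1. The same bins held 45484 read pairs in SW480, 45082 in HCC1954 and 33167 in OE33. SEMA6A, a transmembrane semaphorin, had all 4 bins listed in SNU-C1 and was at 0.630, with 9762 read pairs. SEMA6A was the member for which HCC1954 was below the other lines (0.881), while the other 8 were between 1.45 and 2.06 in that line. Over the 9 genes OE33 lay between 0.725 and 1.15 and SW480 between 0.933 and 1.38.

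**Figure D1:**
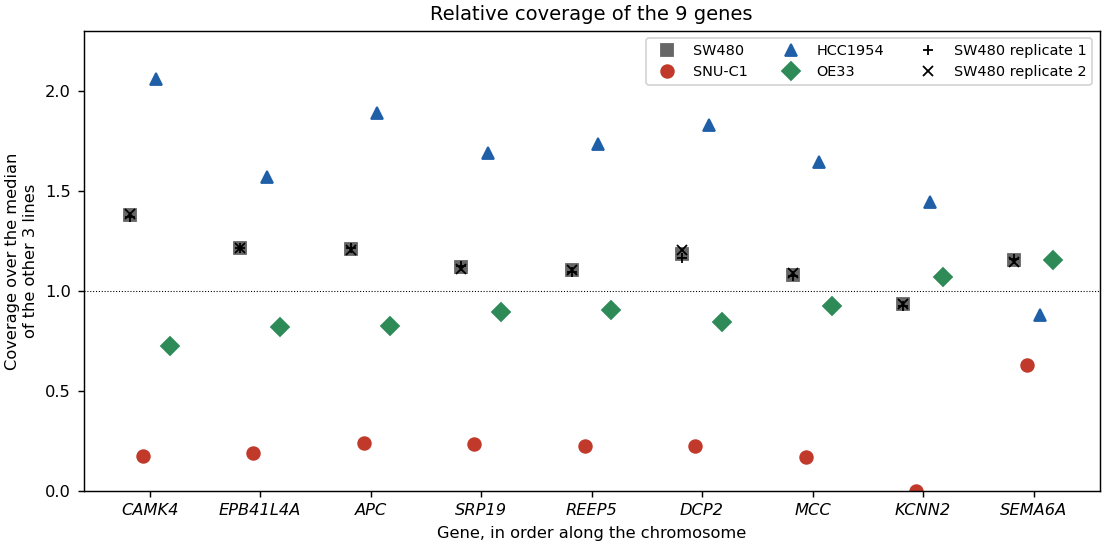
Coverage of the 9 genes in order along the chromosome (x axis) over the median of the same bins in the other 3 lines (y axis, no unit), 1 symbol per line, with the SW480 replicates as crosses. SNU-C1 lies between 0.170 and 0.239 from CAMK4 to MCC, at 0 (not listed) for KCNN2 and at 0.630 for SEMA6A, and HCC1954 is highest for 8 of the 9 genes.

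Bins that were not listed were found in SNU-C1 alone. Of the 375 bins of the window, 108 were not listed in SNU-C1 and 0 were not listed in SW480, HCC1954 and OE33. Over the autosomes, 0.449% of the 62545 bins that reached 0.25 of the median coverage in each other line were not listed in SNU-C1. By the milder measure, 164 of the 375 bins of SNU-C1 were at or under 0.5 times the other lines, where 2.08% of autosomal bins were. All 94 bins of 109.28 to 113.04 Mb were among them. Both measures belong to the readout that selected the window.

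Among the 48 genes, 13 had no listed bin in SNU-C1, 7 were listed in part and 28 in full. The same shares over all genes were not counted. By the milder measure, on mean coverage, 5.39% of all autosomal genes were at or under 0.5 times the other lines in SNU-C1. The 48 genes were not counted by that measure, so the 13 cannot be set against this share. The 13 followed each other from KCNN2 to ARL14EPL. They were KCNN2, the ubiquitin ligase gene TRIM36, PGGT1B, which encodes a subunit of the geranylgeranyl transferase, CCDC112, FEM1C, the Toll-like receptor adaptor gene TICAM2 with TMED7 and their readthrough TMED7-TICAM2, the cysteine dioxygenase gene CDO1, the autophagy gene ATG12, AP3S1, LVRN and ARL14EPL. COMMD10, the next gene, had 3 of its 9 bins listed. The others listed in part were CAMK4, EPB41L4A, MCC, TMEM232 (5 of 12 bins), NREP (4 of 10) and YTHDC2 (2 of 3).

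The window of SNU-C1 was divided by 2 contacts. The strongest pair of bins at least 1 Mb apart joined the bins at 109.24 and 115.64 Mb with 93 read pairs (interval 75.1 to 114), an observed over expected contact (O/E, the value over the mean at that distance in the same map) of 275. The same pair of bins had 2 read pairs in SW480, 0 in HCC1954 and 1 in OE33. The next joined 113 and 119.64 Mb with an O/E of 244 from 66 read pairs (interval 51.0 to 84.0), where the counts were 0, 0 and 1 in SW480, HCC1954 and OE33. Away from these by more than 1 Mb, the next pair with at least 20 read pairs had an O/E of 5.23. The corrected values of the 2 pairs were 79.8% and 69.0% of the mean for neighbouring bins.

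The skipped lengths overlapped. The first contact bridged 109.28 to 115.64 Mb and the second 113.04 to 119.64 Mb, and the 2.6 Mb that both bridged was the stretch from before KCNN2 into COMMD10 in which none of 65 bins was listed. These 4 edges cut the window into 5 stretches, called here by position or gene: proximal (107 to 109.28 Mb), APC (109.28 to 113.04 Mb), empty (113.04 to 115.64 Mb), SEMA6A (115.64 to 119.64 Mb) and distal (119.64 to 122 Mb). The edges, and all values by stretch, were set after the data had been seen.

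Coverage in SNU-C1 differed from stretch to stretch. The median over listed bins, relative to the other lines, was 0.892 in the proximal stretch, 0.200 in the APC stretch (51 of 94 bins listed), 0 (no bin listed) in the empty stretch, 0.651 in the SEMA6A stretch and 0.996 in the distal stretch. With unlisted bins counted at 0 the APC stretch was at 0.122 and over pairs at least 1 Mb apart at 0.297. Over pairs between chromosomes, against HCC1954 and OE33, it was at 0.112, again with a reference raised by HCC1954. Listed bins of the APC stretch lay between 0.151 and 0.286 and those of the SEMA6A stretch between 0.385 and 0.920, in stretches cut from this same map. Every bin was listed in the other lines. Over the APC stretch SW480 was at 1.26, HCC1954 at 1.67 and OE33 at 0.851. Over the empty stretch they were at 1.02, 1.43 and 0.976, and over the SEMA6A stretch at 1.36, 0.852 and 1.17.

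**Figure D2:**
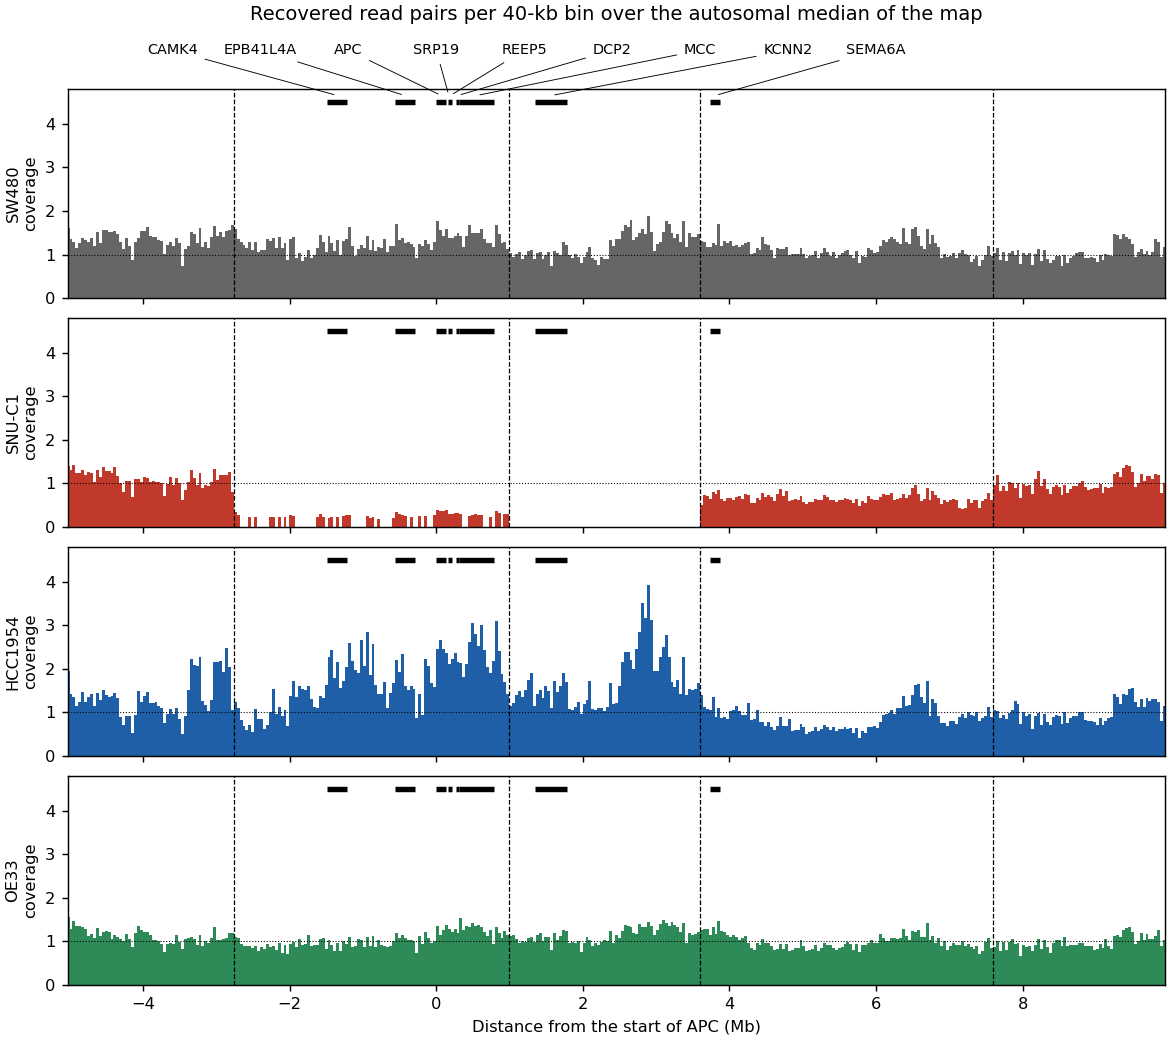
Coverage of 40-kb bins over the autosomal median (y axis, no unit) against distance from the start of APC in Mb (x axis). Each line has 1 panel, with the 9 genes as black bars and the 4 edges as dashed lines. SNU-C1 falls at the first edge, has no bars between the second and the third, and returns in 2 steps, while HCC1954 is raised around APC and again before the third edge.

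The share of listed bins in the APC stretch was lower where coverage in the other lines was lower. Where the other lines were at 1.3 or above, 31 of 34 bins (91.2%) were listed in SNU-C1. Between 1.1 and 1.3, 14 of 29 (48.3%) were, and below 1.1, 6 of 31 (19.4%). In the empty stretch none of 25 bins at 1.3 or above was listed. Counted with pairs between chromosomes, unlike coverage, the lowest total of any autosomal bin listed in SNU-C1 was 628 read pairs. By this total 24 of its 65 lowest listed bins, the lowest 0.1%, lay in the window. The sources used here do not give the authors' rule for leaving out bins of low coverage, and its part in the 43 bins not listed there was not tested.

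The listed and unlisted bins of the APC stretch differed little in sequence. GATC, the site cut by MboI, occurred at a median of 94 sites per bin in the listed bins, 91 in the unlisted bins and 96 in the empty stretch, against 95 over chromosome 5. The median GC content was 38.5%, 38.6% and 38.1%.

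Contacts between stretches differed between SNU-C1 and the other lines. The APC and SEMA6A stretches, neighbours but for the empty stretch, were connected by 4 read pairs (interval 1.09 to 10.2) over 5100 pairs of listed bins, an O/E of 0.0036. The same stretches had 13747 read pairs and an O/E of 1.10 in SW480, 8900 and 0.972 in HCC1954 and 8335 and 1.39 in OE33. The APC stretch had 4038 read pairs with the distal stretch (O/E 5.65) and 3951 with the proximal stretch (O/E 1.14). The SEMA6A stretch had 15183 with the proximal stretch (O/E 5.81) and 13568 with the distal stretch (O/E 1.06). In the other 3 lines the O/E between APC and distal was 0.811 to 1.31 and between proximal and SEMA6A 0.974 to 1.22. Between APC and proximal it was 0.899 to 1.36 there, and between SEMA6A and distal 1.30 to 1.47. The proximal and distal stretches had 3470 read pairs in SNU-C1 (O/E 2.02), against an O/E of 1.15 to 1.28 in the other 3 lines.

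By corrected values the 2 contact blocks had the strength of shorter distances. Over the 1 Mb outside each end of the first contact, 6329 read pairs gave an O/E of 18.9 at the reference distance and of 0.980 when the bridged length was taken out. For the second contact, 1724 read pairs gave 13.4 and 0.705. The correction weighs more in the thinly covered APC stretch. Uncorrected, APC and distal had 4038 read pairs over 3009 pairs of listed bins in SNU-C1. Over 5546 pairs of bins SW480 had 4965, HCC1954 2754 and OE33 3000. At the reference distance the flanks of the 2 contacts were at 0.669 to 1.32 for the first and 0.521 to 0.748 for the second in SW480, HCC1954 and OE33.

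**Figure D3:**
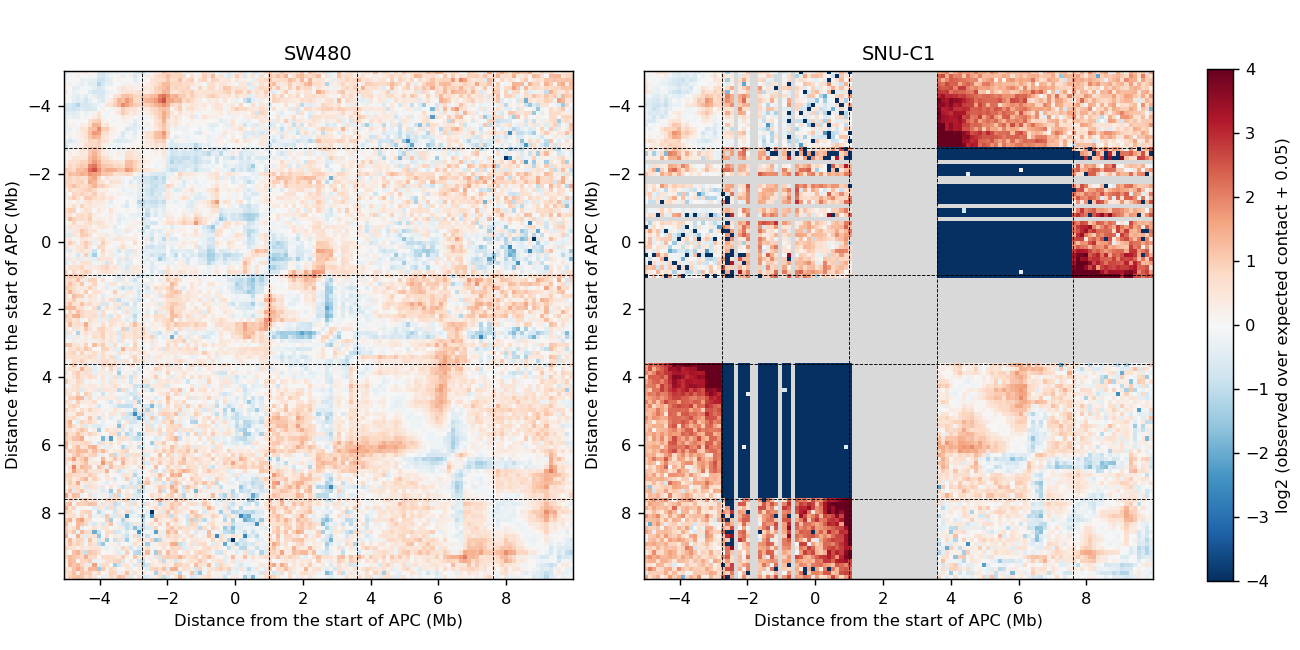
Contacts of the window in SW480 and SNU-C1, as log2 of the observed over the expected contact plus 0.05 in squares of 3 by 3 bins, with distance from the start of APC in Mb on both axes and the 4 edges as dashed lines. Grey squares have no listed bins. In SNU-C1 the corners of the proximal and SEMA6A stretches and of the APC and distal stretches are red, and the block between APC and SEMA6A is dark blue, where SW480 has neither.

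The usable bins just before the empty stretch lie in the thinly covered APC stretch. Between the usable bins nearest to the empty stretch no contact was found. The 5 usable bins on each side of it had 0 read pairs in SNU-C1 (up to 3.69 allowed), 80 in SW480, 64 in HCC1954 and 55 in OE33. Across the 5 shorter runs of at least 3 unlisted bins, 23 bins in all and all within the APC stretch, contacts were found. The median O/E over these 5 runs was 3.54 in SNU-C1, from 1.45 to 3.80, and 1.42 in SW480, 1.18 in HCC1954 and 1.58 in OE33. With the run taken out of the distance it was 1.66 in SNU-C1, 0.712 in SW480, 0.609 in HCC1954 and 0.996 in OE33. All contacts within the APC stretch had an O/E of 2.04 in SNU-C1, and the 5 runs are not 5 separate measurements, since 2 pairs of them share their flanking bins. The runs at 109.36 and 109.6 Mb, both at 1.45 in SNU-C1, have flanks that reach into the proximal stretch. Their nearest flanking bins were at 109.32 and 110.04 Mb, so more than the run lay between them. The same holds for the runs at 110.88 and 111.28 Mb, whose nearest flanking bins were at 110.84 and 111.48 Mb. For all of these the distance was shortened by the run only. The run at 110.12 Mb, whose value of 1.66 is the SNU-C1 median, lay directly between its flanking bins. On recovered read pairs without the correction the median of SNU-C1 was 0.605.

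Contacts among the members followed the stretches, of which their bins are a part, and are no separate observation. In SNU-C1, APC had 300 read pairs with REEP5 (O/E 1.38), 410 with SRP19 (1.47), 187 with DCP2 (1.47), 253 with EPB41L4A (2.16), 238 with MCC (1.03) and 36 with CAMK4 (1.65). In the other lines the O/E of APC with MCC, 0.781 Mb away, was 0.630 in SW480 (1659 read pairs), 0.460 in HCC1954 (2140) and 0.660 in OE33 (1008), over 52 pairs of bins against 32 in SNU-C1. The order of the lines therefore turns with the correction, since SNU-C1 had the fewest read pairs and the highest O/E. APC and SEMA6A, 3.87 Mb apart, had 35 read pairs in SW480, 11 in HCC1954, 34 in OE33 and 0 in SNU-C1. KCNN2 could not be measured in SNU-C1. The remaining members, at low coverage there, had no read pair with SEMA6A, where each count of 0 allows up to 3.69.

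Counted without regard to stretches, SNU-C1 had 1471 specific pairs of bins among 27913 tested in the window (5.27%). A pair was specific when its bins lay 400 kb or more apart and its O/E, summed over 3 by 3 bins, reached 4 and also reached 4 times that of each other line. Over 15-Mb windows of all autosomes the share was 0.0312% for SNU-C1, and none of the 175 scored windows had a higher share, for a window selected on SNU-C1. By the same ranking 13 windows were higher for HCC1954, 17 for SW480 and 46 for OE33. Of the 1471, 983 lay between the proximal and SEMA6A stretches, 466 between APC and distal and 22 of 2900 between APC and SEMA6A. Sums over 3 by 3 bins take in bins across an edge, and their part in the 22 was not tested. HCC1954 had 21 specific pairs (0.0752%, against 0.0287% over the autosomes). On recovered read pairs the count of SNU-C1 was 582 and that of HCC1954 was 63. SW480 and OE33 had 0, where the autosomal shares were 0.00533% and 0.00666%. This count needs bins usable in all 4 lines, and no bin of the empty stretch did. With SNU-C1 left out, SW480 had 0 of 66795, OE33 had 9, led by 109.76 with 120.84 Mb (O/E 6.36, 19 read pairs), and HCC1954 had 173, led by 109.64 with 115.92 Mb (O/E 23.1, 103 read pairs), 109.16 with 114.76 Mb (22.3, 621 read pairs) and 110.16 with 116.16 Mb (21.3, 205 read pairs).

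The domain structure around APC was measured in the 3 lines that cover it. Topologically associating domains are stretches that contact themselves more than their neighbours, and the insulation score, here the log2 of the mean contact between the 1 Mb on each side of a bin over the chromosome mean, is low at their boundaries. At the start of APC the score was -0.29 in SW480 (-0.29 in each replicate), -0.76 in HCC1954 and -0.56 in OE33. It could not be measured in SNU-C1 with bins of at least 0.25 of the median. Over all listed bins, and with a smaller share of the bin pairs required, it was 1.10 there. By the same rule it was -0.29, -0.76 and -0.57 in SW480, HCC1954 and OE33. The SW480 replicates differed by a median of 0.024 over the window and by at most 0.11. SW480 differed from OE33 by a median of 0.15 and from HCC1954 by 0.31. SW480 was corrected within chromosomes and the other lines over the genome, which the spread of the SW480 replicates does not cover. The part of the correction in these differences was not tested. HCC1954 and OE33, both corrected over the genome, differed by a median of 0.27. On recovered read pairs the score at APC was 0.05 in SW480 and 0.68 in HCC1954, so its sign in these lines holds for corrected values only, while OE33 stayed at -0.43.

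Boundaries lay on both sides of APC in the lines that could be measured. The nearest before the gene was at 111.84 Mb in SW480 and HCC1954, 200 kb before the bin where APC starts, and at 111.88 Mb in OE33. Its strength, from the change of the score over 200 kb on each side, was 0.20, 0.41 and 0.74. A stronger boundary at 112.24 Mb, the bin with the start of REEP5 and as far from the bin where APC starts, was called in SW480 (0.68) and HCC1954 (0.54). The next shared one, at 112.96 Mb (112.92 Mb in OE33), had strengths of 1.30, 1.32 and 0.90. In SW480 and HCC1954 it lay between YTHDC2 and KCNN2, 1 bin before the bin at 113 Mb that carries the second SNU-C1 contact. In OE33 its bin held the end of YTHDC2. KCNN2 itself lay inside a domain, with scores of 0.28, -0.11 and 0.32 in SW480, HCC1954 and OE33. On recovered read pairs these were 0.21, 0.74 and 0.26, so the sign in HCC1954 holds for corrected values only.

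Over the window 17 boundaries were called in SW480, 15 in HCC1954 and 13 in OE33. Of the 17, 12 lay within 2 bins of one in HCC1954 and 10 of one in OE33. The SW480 replicates, which were corrected in the same way, shared all 17. SNU-C1 had 6 boundaries over the 206 bins where it could be measured, and 6 lay within 2 bins of one in SW480. Beside the third edge, at 115.92 Mb, its score was higher than that of SW480 by 1.13, of HCC1954 by 1.61 and of OE33 by 1.64, the largest differences between SNU-C1 and these lines in the window. Most of the 1 Mb before this bin lies in the empty stretch, so the SNU-C1 score there rests on the nearer bins only. The other lines use the whole 1 Mb, and the part of this in the differences was not tested.

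**Figure D4:**
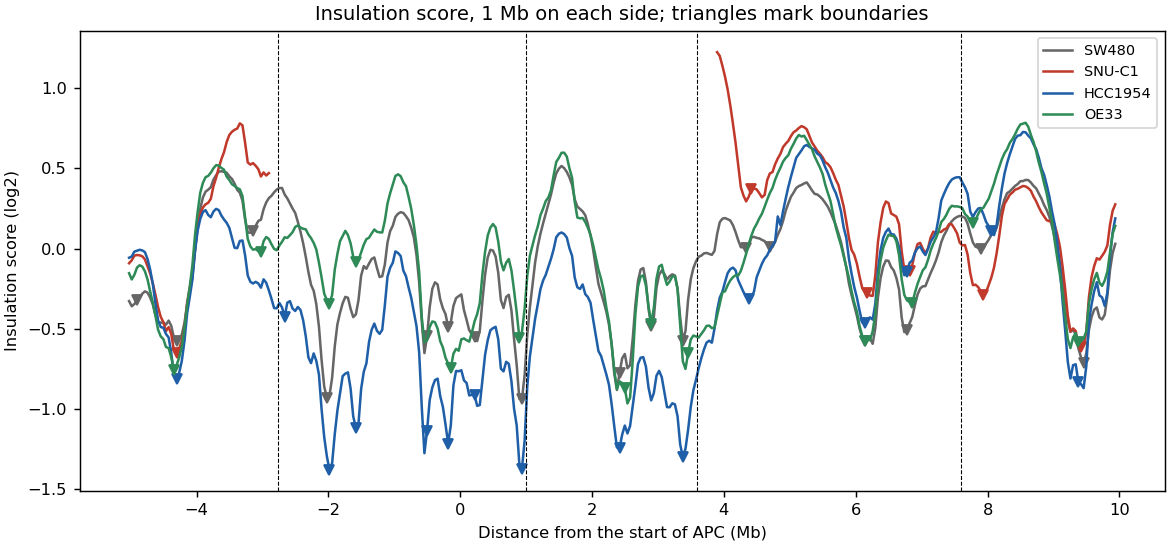
Insulation score (y axis, log2) against distance from the start of APC in Mb (x axis) in the 4 lines, with called boundaries as triangles and the 4 edges as dashed lines. SNU-C1 has no line from just before the first edge to just after the third, and the boundaries near 107.72, 118.16, 118.8 and 121.4 Mb are shared by all 4 lines.

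The boundaries shared by SW480, HCC1954 and OE33 numbered 9, and their bins were searched for the CTCF core consensus, since CTCF bound to this sequence holds many domain boundaries. The search took the 13 bases of the consensus on both strands, in the boundary bin and the bin on each side. A match lay at 5 of the 9, and over all positions of chromosome 5 the share was 18.2%. The 5 matches are shown because 4 of them lie in the APC and empty stretches that SNU-C1 covers thinly or not at all. Each is written from the strand of the match with 5 bases on each side, and capitals mark the consensus.
Boundary at 110 Mb, chr5:109961278-109961300, minus strand: ttataCCACCAGGGGGCAtacat
Boundary at 111.84 Mb, chr5:111839996-111840018, plus strand: acatcCCAGCAGGGGGCAacaga
Boundary at 114.44 Mb, chr5:114405242-114405264, minus strand: tcttgCCAGTAGGTGGCAagcta
Boundary at 115.4 Mb, chr5:115373318-115373340, minus strand: tatgtCCAGCAGATGGCAcaaaa
Boundary at 121.48 Mb, chr5:121531671-121531693, plus strand: ggagcCCAGTAGGTGGCAataga
The first 2 lie in the APC stretch, the next 2 in the empty stretch and the last in the distal stretch. A match says only that these letters occur, and binding was not measured.

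The other genes of the Wnt pathway were compared over a list of 25, by mean coverage over the other lines. In SNU-C1, 4 of 25 were at or under 0.5 and 0 at or over 2, against 5.39% and 1.75% of all autosomal genes. In HCC1954, 3 were at or under 0.5 and 2 at or over 2 (7.24% and 2.08% of all genes). In OE33, 0 of 23 were low and 2 high (1.91% and 12.2%), and in SW480 0 of 23 were low and 0 high (1.46% and 1.63%). The medians of the list were 0.787 in SNU-C1, 0.933 in HCC1954, 1.05 in OE33 and 1.18 in SW480, and those of all genes 0.857, 0.940, 1.11 and 1.11.

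The genes furthest from 1 were AXIN1, APC2, DVL1, LRP5 and SFRP1. APC2, a paralog of APC, and DVL1, which relays the signal from the receptor, had no listed bin in SNU-C1 and HCC1954, and coverage of 0.276 and 0.417 in SW480 and 0.945 and 0.595 in OE33. These unlisted genes, counted at 0, are 2 of the 4 low genes of SNU-C1 and 2 of the 3 of HCC1954. AXIN1, the other scaffold of the destruction complex, was at 4.55 in OE33 and 0.364 in HCC1954. Its coverage was 1.29 of the autosomal median in OE33, and 0.448, 0.284 and 0.163 in SW480, SNU-C1 and HCC1954. Both ratios of AXIN1 therefore rest on low values. The co-receptor gene LRP5 was at 2.35 in OE33, and SFRP1, a secreted inhibitor, at 2.19 in HCC1954. Named after their values were seen, the other low genes of SNU-C1 were GSK3A (0.460) and DVL2 (0.486), the other high gene of HCC1954 was RSPO2 (2.02), and CTNNB1, which encodes beta-catenin, was at 0.916 in SNU-C1.

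The profile of APC over the 4 lines was compared with those of genes outside the window. Coverage at APC was 1.59, 0.374, 2.48 and 1.28 of the autosomal median in SW480, SNU-C1, HCC1954 and OE33, as means over its bins. Among 19174 genes compared, the nearest by Euclidean distance of log2 coverage were CCND1, MYEOV and LTO1 on chromosome 11 (0.82, 0.83 and 0.85) and CLPTM1L and TRIP13 on chromosome 5 (0.89 and 0.90). CCND1 was at 1.17, 0.576, 2.09 and 1.76 in the same order.

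The APC stretch of SNU-C1 also differed from its surroundings in contacts with chromosome 3. Over listed bins, the O/E with chromosome 3 was 2.48 in the proximal stretch (6709 read pairs), 2.55 in the SEMA6A stretch (8258) and 2.17 in the distal stretch (5570). In the APC stretch it was 0.586, with 515 read pairs over 51 bins. In OE33 the same 4 stretches had 0.830, 0.714, 0.724 and 0.802, and in HCC1954 0.767, 0.586, 0.535 and 0.803. In SNU-C1, 95 of 169 measured 1-Mb blocks of chromosome 5 had a mean O/E with chromosome 3 of at least 2, from 71 to 180 Mb, the strongest at 71 Mb with 62 Mb of chromosome 3 (O/E 136). The block at 112 Mb, which holds APC, had the lowest mean of the 169 (0.567).

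HCC1954 carried the APC region at raised coverage and in contact with many distant places. Of its 375 bins, 33 were at or over 2 times the other lines, where 3.72% of autosomal bins were, and 24 of the 33 lay in the APC stretch, 6 in the empty stretch and 3 in the proximal stretch. The highest was 2.74 times the other lines, at 114.92 Mb. SNU-C1 is among the 3 lines of this median, and where it is lowest the median is the lower of SW480 and OE33, which raises the ratio. CAMK4, for example, had coverage of 1.92 in HCC1954, 1.28 in SW480 and 0.930 in OE33. Within chromosome 5, the bin at 108.64 Mb had 103 read pairs with 176.84 Mb (O/E 945), the bin at 115.8 Mb had 67 with 2.68 Mb (680) and the bin at 114.52 Mb had 32 with 32.32 Mb (414). These pairs of bins had 0 read pairs in SW480 and OE33. They had 0 in SNU-C1 too, but there the bin at 114.52 Mb was not listed. In the window, the strongest single bin pair joined 109.68 and 115.96 Mb (O/E 84.2, 33 read pairs).

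With chromosome 8, 204 of 1950 pairs of 1-Mb blocks of the window were specific to HCC1954 (10.5%), with an O/E that reached 4 and also 4 times that of OE33 and, where it could be measured, of SNU-C1. Over all pairs of autosomes the share was 0.388%. SNU-C1 had too few usable bins in the blocks at 109, 110, 111, 113, 114 and 115 Mb, so their calls, most of the 204, rest on OE33 alone. With OE33 alone for every block the count was 211. The whole of chromosomes 5 and 8 had 496 of 22750 (2.18%), which ranked 17 among the 231 pairs of autosomes. Blocks with such calls were 10 of the 15 of the window, from 108 to 118 Mb, with 1 call in the last of them. The mean O/E over chromosome 8 was 0.780 at 107 Mb, 2.93 at 108 Mb, 3.73 in the block of APC at 112 Mb, 8.20 at 114 Mb, 8.29 at 115 Mb, 4.79 at 116 Mb and 0.604 at 117 Mb. In OE33 the 15 blocks lay between 0.719 and 0.924. On the chromosome 8 side, 186 of the 204 calls lay beyond 100 Mb.

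The strongest partners of the members among 641 blocks of 200 kb on chromosome 8 lay between 108.8 and 121.4 Mb. SEMA6A had its strongest contact with 108.8 Mb, the block of RSPO2 (O/E 401, 126 read pairs). RSPO2 encodes a secreted activator of Wnt signalling. EPB41L4A and CAMK4 had theirs with 113.4 Mb, in CSMD3 (O/E 398 and 230, with 553 and 334 read pairs). KCNN2, REEP5 and SRP19 shared 114.8 Mb (153, 101 and 86.3), and DCP2 had 114.6 Mb (78.8), blocks without a protein-coding gene. APC had 121.2 Mb, with COL14A1 and MRPL13 (O/E 118, 61 read pairs, interval 46.7 to 78.4). MCC had 117.6 Mb, with EIF3H and UTP23 (95.1, 382 read pairs). In OE33 these blocks had 0 to 2 read pairs with the members. SNU-C1 had 0, but EPB41L4A, CAMK4 and KCNN2 could not be measured there, and its coverage of the other members but SEMA6A was low. Over all of chromosome 8, APC had 1615 read pairs in HCC1954 (mean O/E 3.73), 330 in OE33 (1.005) and 48 in SNU-C1 (0.667).

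Other chromosomes took part as well. Specific pairs with the window made up 9.66% of 1-Mb block pairs of chromosome 22, 6.85% of chromosome 4, 4.59% of chromosome 2, 3.39% of chromosome 20 and 2.74% of chromosome 11 in HCC1954. The strongest 200-kb pair joined 111.8 Mb with 176 Mb of chromosome 4 (O/E 1929, 1553 read pairs), and the strongest with chromosome 8 joined 114.8 Mb with 132.4 Mb (1569, 1305 read pairs). OE33 had 0 read pairs at both, and SNU-C1 could not be compared there for lack of usable bins.

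**Figure D5:**
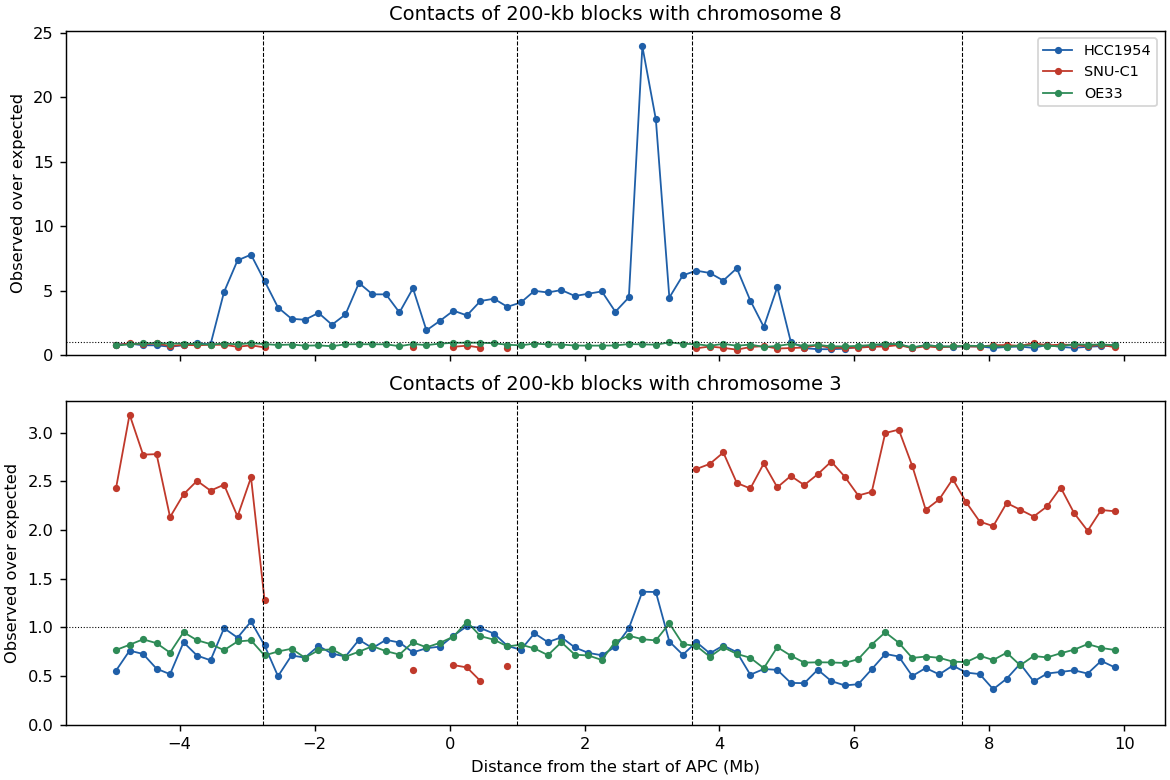
Contacts of 200-kb blocks of the window with all of chromosome 8 (upper panel) and chromosome 3 (lower panel), as observed over expected (y axis, no unit), against distance from the start of APC in Mb (x axis), for HCC1954, SNU-C1 and OE33, with the 4 edges as dashed lines. HCC1954 is raised with chromosome 8 in the blocks from 108.6 to 116.8 Mb, and SNU-C1 is raised with chromosome 3 in the proximal, SEMA6A and distal stretches and lies lowest in the few measured blocks of the APC stretch.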

How the data were processed

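In situ Hi-C maps were taken as the authors deposited them. Chromatin had been cut with MboI, reads aligned to hg19 with BWA-MEM, duplicates removed with Picard and 40-kb matrices normalized by iterative correction. The sources used here give neither versions nor the filter on low-coverage bins. The deposited values are a signal, the corrected contact frequency. SNU-C1, HCC1954 and OE33 were corrected over the genome, SW480 within chromosomes.

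Each value is a number of read pairs divided by a factor for each of its 2 bins. Pairs 5 Mb or more apart were used to fit the factors (45 iterations), and 99.96% or more of the products up to 20.5 read pairs came out whole within 0.02. Recovered read pairs gave depth, coverage and intervals. Scripts ran in Python 3.11.15 with numpy 2.4.6, scipy 1.17.1 and numba 0.67.0, and were tested on simulated data. Protein-coding genes came from a GENCODE annotation lifted to GRCh37 (hg19), and sequences from the GRCh37 genome. Boundaries, motifs and lists are described without tests.

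The expected contact was the mean at each distance in the same map (smoothed over 10% beyond 5 Mb) or, between chromosomes, over all usable bins. Usable bins had at least 0.25 of the median coverage, and blocks needed at least a share of 0.5 of their bins usable. An amount of 0.5 was added before ratios of O/E. Insulation needed 25% of the square of bin pairs, less for the score over all listed bins, and boundaries a strength of 0.1 over 200 kb. The members and lists were chosen with earlier results of these data known, and the text names the 9 members, window genes with unlisted bins, chromosome 8 genes in the strongest blocks, up to 5 Wnt genes furthest from 1 and the 5 genes nearest APC. No p-value was computed, with 1 map for each of 3 lines.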

Additional observations from a re-analysis of the deposited data

How the results depend on the processing

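The count of 108 bins not listed in SNU-C1 was 130 with bins under 0.25 of the median and 108 under the other alternatives. Relative coverage at APC in SNU-C1 (0.239) was 0.334 for pairs at least 1 Mb apart, 0.101 between chromosomes, 0.246 on the chromosome 5 median, 0.153 against HCC1954 alone and 0.289 against OE33 alone, and 0.238 to 0.240 without either SW480 replicate. Over the APC stretch (0.200) it was 0.297 at 1 Mb or more, 0.112 between chromosomes and 0.122 with unlisted bins at 0, settings added after the data were seen. Both values between chromosomes use HCC1954 and OE33 alone as the reference. The median across the shorter runs (3.54) was 5.85 with a flank of 1 bin and 4.24 with 3. It was 2.39 with runs of at least 2 bins (9 runs) and 0.605 on read pairs. The longest run stayed at 0, which these settings could not change, since its flanks of 5 bins hold 0 read pairs. The insulation score at APC was -0.061, -0.55 and -0.59 in SW480, HCC1954 and OE33 with 480 kb, 0.049, 0.68 and -0.43 on read pairs, and -0.29 to -0.29 in SW480 without either replicate. With bins usable in all 4 lines it could not be measured. SNU-C1-specific pairs (1471) were 4172 at a ratio of 2, 457 at 8 and 582 on read pairs, and 1454 to 1475 without either SW480 replicate. HCC1954-specific pairs (21) were 107 with single bins, 12 with 5 by 5, 105 and 3 at ratios of 2 and 8, 63 on read pairs, 173 without SNU-C1 and 16 to 21 without either SW480 replicate. Calls with chromosome 8 (204 of 1950) were 707 of 8672 with blocks of 480 kb, 64 of 520 with 2 Mb, 311 and 115 at ratios of 2 and 8 and 308 on read pairs. The cause of these changes was not tested, beyond the number of pairs that block size and bins set. No paired analysis was possible because SW480 alone has replicate numbers. Depth limits single bin pairs at large distances, where a count of 0 allows 3.69 read pairs.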
